A study of Mus musculus with 8 samples.

Results

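The axonal cytoskeleton and axon injury genes were 10 genes, chosen by symbol: Nefl, Nefm, Nefh, Ina, Mapt, Map1b and Tubb3 for the cytoskeleton, and Stmn2, Gap43 and Sprr1a for the response to injury. Each was read from a transcript cluster of the array that the platform annotation assigned to exactly 1 gene symbol, and where a gene had several such clusters the one with the highest mean over all arrays was taken. All 10 had such a cluster, of 19938 genes with one in the whole series. Only Ina had a second cluster.

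Corpus callosum, the white matter tract joining the cerebral hemispheres, was dissected by hand from perfused male wild-type C57BL/6 mice, labelled as 8 weeks old. The cuprizone group (4 arrays) came from mice fed 0.25% cuprizone, a copper chelator toxic to oligodendrocytes, for 1 week, and the control group (4 arrays) from mice on normal diet. Each array is labelled as a biological replicate. RNA was hybridised to Affymetrix Mouse Gene 1.0 ST arrays, and levels are given as log2 values, so that 1 unit is a doubling.

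A long axon is held open by neurofilaments, which are assembled from the light, medium and heavy subunits (Nefl, Nefm, Nefh) and alpha-internexin (Ina), and by microtubules of tubulin, which microtubule-associated proteins bind. When an axon of a peripheral nerve is cut, its neuron switches on growth genes, among them Gap43, Stmn2 and Sprr1a, and lowers neurofilament transcripts; many central neurons respond less. Most of these mRNAs sit in the cell bodies of neurons, which for callosal axons lie in the cerebral cortex and not in the tract itself. Some are also made by glia: oligodendrocytes transcribe Mapt.

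Over the 23410 clusters with at least 1 gene symbol, correlations lay between 0.9952 and 0.9971 for 2 arrays of the same diet and between 0.9884 and 0.9944 across diets. The first principal component (52.2% of the variance) separated the diets. Cuprizone replicate 2 had a score of 8.73 on it, where the remaining cuprizone arrays had 16.5 to 22.5, and control replicate 2 one of -13.2, where the remaining controls had -18.6 to -18.1. Replicate 2 of each diet therefore lay nearer to the opposite group than the rest. Slc17a7, the vesicular glutamate transporter of cortical neurons, lay between 11.24 and 11.33 on cuprizone arrays and between 11.41 and 11.46 on control arrays (limma adjusted p = 0.105). It was named after its values were seen and is 1 of 25 measured neuronal genes. Their log2 fold changes ran from -0.30 to 0.34, in both directions, with a median of -0.04. Levels of different probes cannot be compared, so that the share of neuronal RNA in the tissue is not known from these values.

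Across the 10 genes, 1 fell (Mapt) and 1 rose (Sprr1a) in cuprizone callosum at a limma adjusted p under 0.05, and 8 did not pass this threshold. Over all 23410 clusters tested 8.22% were called, 4.71% higher and 3.52% lower, so that 2 of 10 is too small a count to set apart from the background. The arrays of the groups did not overlap for 1 of the 10 genes, against 15.3% of all clusters. Of the 7 cytoskeletal genes 1 fell and none rose, with a median log2 fold change of -0.04. Of the 3 injury-response genes 1 rose and none fell, with a median of -0.06. The median over all clusters was -0.0074. For the 8 genes that were not called, the 95% confidence intervals of the change lay between 0.804-fold and 1.29-fold, cuprizone over control. Changes larger than these bounds lay outside the intervals.

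**Figure D1:**
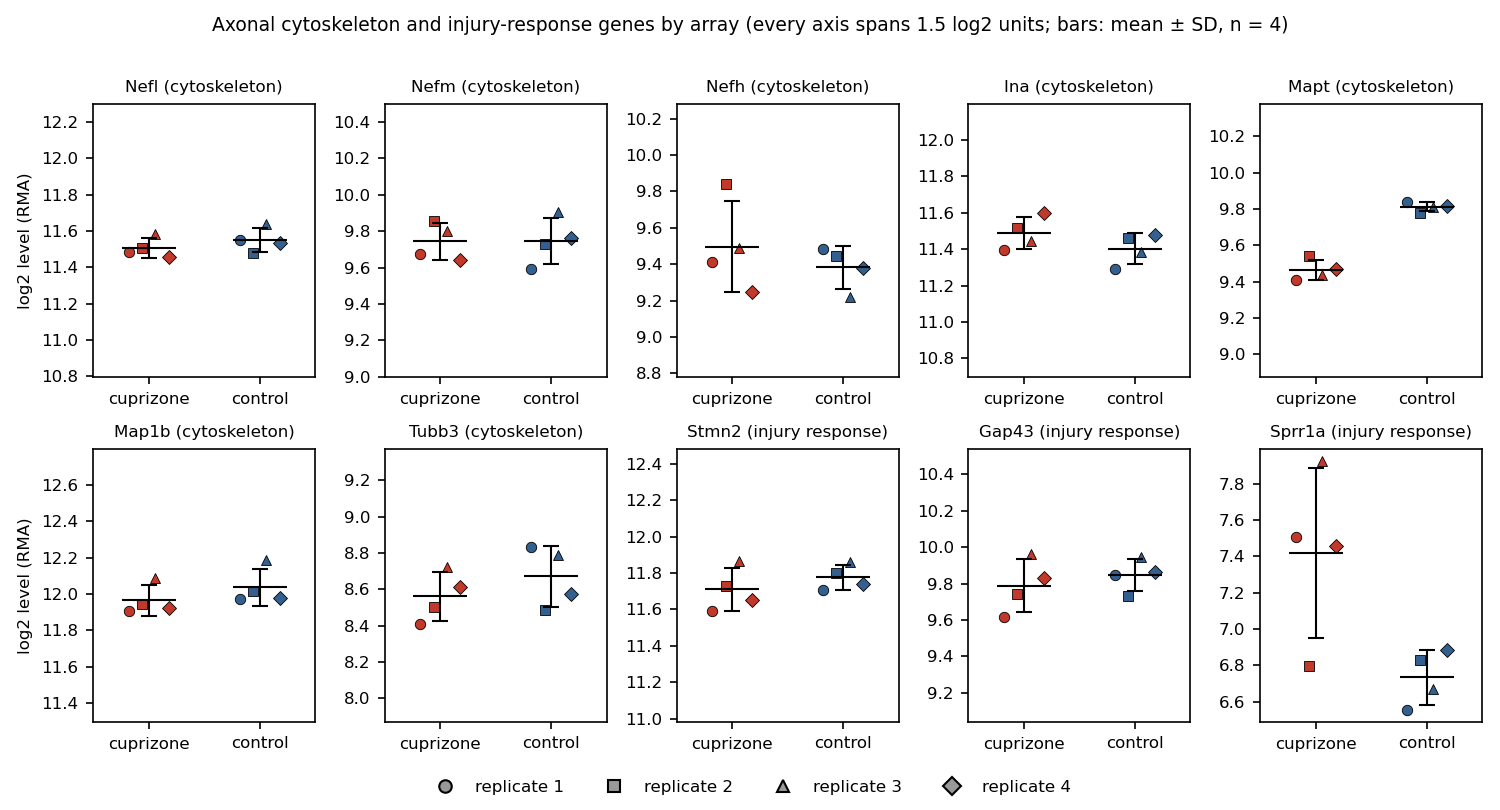
Log2 level of each of the 10 genes on each array, with the 4 cuprizone arrays on the left and the 4 control arrays on the right of each panel; marker shapes give the replicate number, which does not pair arrays, and bars give mean ± SD. Every vertical axis spans the same range. Mapt separates the groups, and Sprr1a is above all controls on 3 of 4 cuprizone arrays.

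The neurofilament subunits showed no called change. Nefl (transcript cluster 10416175), the light subunit needed for filament assembly, had log2 levels of 11.48, 11.51, 11.59 and 11.45 on cuprizone replicates 1 to 4, against 11.55, 11.48, 11.64 and 11.54 on control replicates 1 to 4. The groups overlapped, and replicate 3 was the highest array of each. The log2 fold change was -0.04 ± 0.06 (SE, limma adjusted p = 0.738), with a 95% confidence interval from 0.889-fold to 1.06-fold.

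Nefm (cluster 10421100), the medium subunit, had 9.68, 9.86, 9.80 and 9.64 on the cuprizone arrays and 9.59, 9.73, 9.90 and 9.77 on the control arrays. Both the highest and the lowest array were controls, and the means differed by 0.0033, with an interval from 0.887-fold to 1.12-fold. Nefh (cluster 10383920), the heavy subunit, had 9.41, 9.84, 9.49 and 9.25 on the cuprizone arrays and 9.48, 9.45, 9.22 and 9.38 on the control arrays. Cuprizone replicate 2 stood above the rest, and the other 3 cuprizone arrays spanned nearly the same range as the controls. The log2 fold change of Nefh was 0.11 ± 0.11 (limma adjusted p = 0.648), and without cuprizone replicate 2 the difference was 0.000016, so that 1 array carried it.

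Ina, the internexin partner of the neurofilament triplet, was read from cluster 10463737, with 11.39, 11.52, 11.45 and 11.60 on the cuprizone arrays and 11.29, 11.46, 11.38 and 11.48 on the control arrays. The groups overlapped, although cuprizone replicates 2 and 4 lay above every control. Its log2 fold change was 0.09 ± 0.07 (limma adjusted p = 0.530), and the second Ina cluster (10463732) gave 0.10 ± 0.06 (limma adjusted p = 0.414).

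Of the microtubule genes, Mapt fell. Mapt (cluster 10381776) encodes tau, which binds and spaces axonal microtubules. Its levels were 9.41, 9.54, 9.44 and 9.47 on the cuprizone arrays, against 9.84, 9.78, 9.81 and 9.82 on the control arrays. All 4 cuprizone arrays lay below all 4 controls, with means of 9.47 ± 0.06 and 9.81 ± 0.02 (SD, n = 4 each). The log2 fold change was -0.35 ± 0.05 (limma adjusted p = 0.00170), 1.27-fold lower, with a 95% confidence interval from 0.726-fold to 0.851-fold. Permuting the diet labels over all 70 possible splits (exact test, two-sided) gave p = 0.0286, the smallest it can give. Mapt stayed past the threshold in all 18 alternative fits, with log2 fold changes from -0.37 to -0.33.

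Markers of mature oligodendrocytes moved with Mapt. All 16 measured genes of that list fell, beside 3.52% of all clusters, with a median log2 fold change of -2.08. The list mean lay at -2.65, -1.87, -2.07 and -2.30 from the control mean on cuprizone replicates 1 to 4, against -0.15 to 0.12 on the controls. Cuprizone replicate 1 was the lowest of the cuprizone arrays on both the list and Mapt, and cuprizone replicate 2 the highest on both. Within the controls, replicate 1 was the highest and replicate 2 the lowest on both. The remaining arrays did not keep the same order. The list was lower on cuprizone replicate 4 than on 3, whereas Mapt was lower on 3 (-0.37 from its control mean) than on 4 (-0.34). Control replicates 3 and 4 also changed places, by small amounts. Over the 8 arrays the genes with the pattern most like Mapt were Mal (Pearson r = 0.998), which encodes a myelin membrane protein, Dbndd2 (r = 0.998) and Plekhb1 (r = 0.995), and all fell. These r describe arrays that share the difference between the groups, and Mapt's list of like genes was named after its values were seen. Mal fell by 3.01 on the log2 scale and Mapt by 0.35. In bulk tissue, fewer cells of a type and less RNA per cell cannot be told apart, and the part of oligodendrocyte RNA in the Mapt result was not tested. Of 25 measured neuronal genes 1 fell and none rose (3.52% and 4.71% over all clusters), and the list median was -0.04. The count that fell was 2 without cuprizone replicate 4, 3 with the filter at the 25th percentile of level, median centring or the intensity trend, and 4 with the filter at the median level. The list mean lay between -0.08 and -0.01 on the cuprizone arrays and between -0.04 and 0.04 on the controls. The gene that fell was Elavl3, a neuronal RNA-binding protein (-0.30 ± 0.05, limma adjusted p = 0.00334).

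Map1b (cluster 10411519), a microtubule-associated protein of growing axons, had 11.91, 11.95, 12.09 and 11.92 on the cuprizone arrays and 11.97, 12.01, 12.19 and 11.98 on the control arrays. It was lower than every control on 3 of 4 cuprizone arrays, by small amounts, and replicate 3 was again the highest of each group. The log2 fold change was -0.07 ± 0.07 (limma adjusted p = 0.629). Tubb3 (cluster 10576332), the neuronal beta-tubulin, had 8.41, 8.50, 8.72 and 8.61 on the cuprizone arrays and 8.83, 8.49, 8.79 and 8.57 on the control arrays. Its groups overlapped over most of their range, and it changed by -0.11 ± 0.09 on the log2 scale (limma adjusted p = 0.580), with an interval from 0.804-fold to 1.07-fold.

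**Figure D2:**
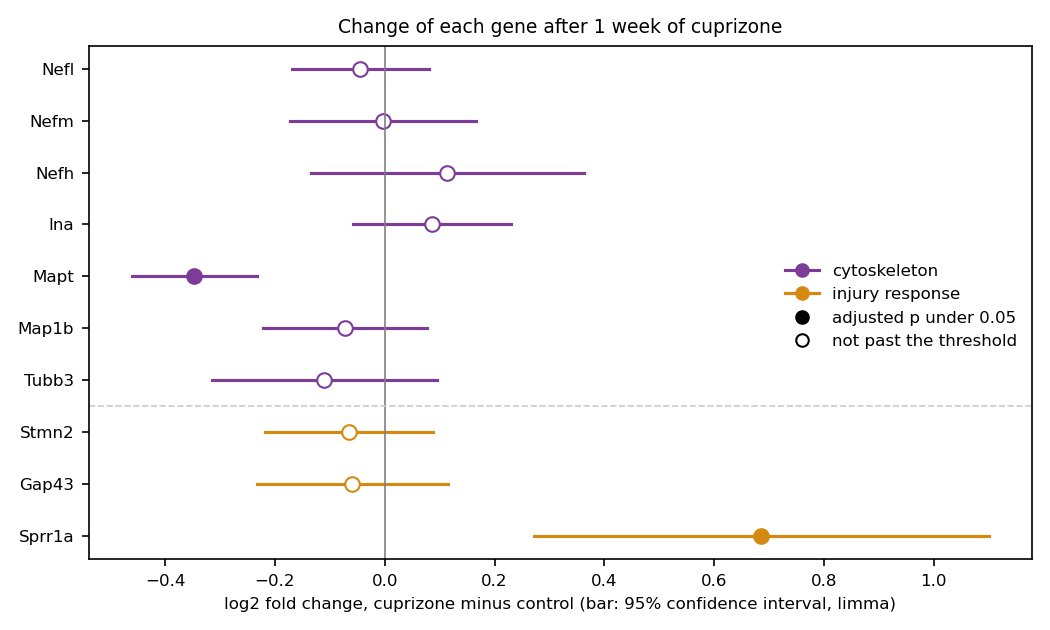
Log2 fold change (cuprizone minus control) of each gene on the horizontal axis, with bars for the 95% confidence interval of the limma fit; filled points passed an adjusted p of 0.05, and the dashed line divides cytoskeletal genes (above) from injury-response genes (below). The interval lies wholly below 0 for Mapt at -0.35 and wholly above 0 for Sprr1a at 0.69, and holds 0 for the other 8 genes.

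The injury-response genes did not move together. Stmn2 (cluster 10490818), a tubulin-binding stathmin of growth cones, had 11.59, 11.73, 11.87 and 11.65 on the cuprizone arrays and 11.70, 11.80, 11.86 and 11.74 on the control arrays. The highest and the lowest array were both cuprizone arrays, replicates 3 and 1. The log2 fold change was -0.07 ± 0.07 (limma adjusted p = 0.676), with an interval from 0.860-fold to 1.06-fold.

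Gap43 (cluster 10439514), a phosphoprotein of growth cone membranes, had 9.62, 9.74, 9.96 and 9.83 on the cuprizone arrays and 9.85, 9.73, 9.95 and 9.86 on the control arrays. The cuprizone arrays spanned the whole range of the controls and more. The log2 fold change was -0.06 ± 0.08 (limma adjusted p = 0.755), and an increase beyond 1.08-fold lay outside the 95% confidence interval. The genes with the pattern most like Gap43 over the 8 arrays were Cntn6 (r = 0.964), a contactin of neuronal surfaces, Cmc2 (r = 0.953) and Rab5b (r = 0.952), an endosomal GTPase, and none of them was called. For Nefl they were Fkbp2 (r = 0.974), Bcap31 (r = 0.973), both proteins of the endoplasmic reticulum, and Eipr1 (r = 0.970), also not called. Each r was picked as the highest over many genes on only 8 arrays.

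Sprr1a (cluster 10499899) encodes a small proline-rich protein of the cornified envelope of skin, and injured sensory neurons of rodents switch it on. Its levels were 7.51, 6.79, 7.92 and 7.46 on the cuprizone arrays, against 6.56, 6.83, 6.67 and 6.88 on the control arrays. Cuprizone replicates 1, 3 and 4 lay above every control, whereas cuprizone replicate 2 lay within the control range. The means were 7.42 ± 0.47 and 6.73 ± 0.15 (SD, n = 4 each), 1.61-fold higher with cuprizone, and the log2 fold change was 0.69 ± 0.19 (limma adjusted p = 0.0486). The call was close to the threshold: the adjusted p was between 0.0764 and 0.126 when any 1 of 7 arrays was left out, and 0.000958, at a log2 fold change of 0.89, without cuprizone replicate 2. The exact two-sided permutation test gave p = 0.0857. Signal over background is not known here.

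Sprr1a lies in a family of small proline-rich genes, and its promoter is shown because the letters of a binding motif of AP-1, the transcription factor family of Jun and Fos, occur in it. The letters searched for were TGANTCA, a loose form of the AP-1 motif in which N is any base and which reads alike on both strands. The runs below are the 250 bases before the annotated start (RefSeq, GRCm38.p6, minus strand), with matches to these letters in capitals. They are given first for Sprr1a (chr3:92485882-92486131) and then for its family member Sprr1b (chr3:92438780-92439029).
Sprr1a: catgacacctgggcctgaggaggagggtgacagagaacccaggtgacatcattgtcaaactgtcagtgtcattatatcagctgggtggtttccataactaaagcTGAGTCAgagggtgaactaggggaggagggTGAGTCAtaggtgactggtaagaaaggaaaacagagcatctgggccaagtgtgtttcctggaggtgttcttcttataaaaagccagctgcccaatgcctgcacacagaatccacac
Sprr1b: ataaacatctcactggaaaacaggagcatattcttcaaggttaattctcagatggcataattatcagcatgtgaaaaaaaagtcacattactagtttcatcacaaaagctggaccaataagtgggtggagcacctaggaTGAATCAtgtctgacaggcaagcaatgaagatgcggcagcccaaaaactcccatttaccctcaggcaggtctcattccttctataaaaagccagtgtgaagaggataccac
The match began 146 and 116 bases before the start in Sprr1a, as TGAGTCA both times. In Sprr1b it began 111 bases before the start, as TGAATCA, so that the base at N differed from that in Sprr1a. Among the 32851 promoters of this length in the table, 6.75% held TGANTCA with any base at N, and 0.338% held at least 2. The letters TATAAA, a core promoter element searched on both strands, were found in both windows, beginning 43 bases before the start of Sprr1a and 30 before that of Sprr1b, and in 12.4% of all promoters. TGACGTCA, the cyclic AMP response element, was in neither, and in 1.55% of all. The promoters of Ina, Map1b and Tubb3, the other members in the table (4 of 10 in all), held no AP-1 motif in this window. Nefl, Nefm, Nefh, Mapt, Stmn2 and Gap43 were not matched. A match describes letters and not a bound site.

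Other small proline-rich genes did not share the change of Sprr1a at the threshold. Sprr1b had 6.01, 5.90, 6.03 and 5.86 on the cuprizone arrays and 5.90, 5.75, 5.71 and 6.11 on the control arrays, and its groups overlapped (0.09 ± 0.09, limma adjusted p = 0.655). The list of further small proline-rich genes and cornified envelope partners had 27 measured genes, with a median of 0.02. Of these 3 rose and none fell, beside 4.71% higher and 3.52% lower over all clusters. Tgm1, the transglutaminase that crosslinks small proline-rich proteins in skin, had 9.48, 9.53, 9.37 and 9.34 on the cuprizone arrays and 6.81, 7.17, 7.00 and 6.86 on the control arrays. Here cuprizone replicate 2 was as high as the others, unlike for Sprr1a, and Tgm1 was 5.54-fold higher (2.47 ± 0.08, limma adjusted p = 1.09e-07). The calcium-binding S100a11 rose by 2.11 ± 0.24 and S100a10 by 1.09 ± 0.14. For S100a11 and S100a10 cuprizone replicate 2 was the lowest cuprizone array, as for Sprr1a and unlike for Tgm1. It still lay above every control for both of these genes, which it did not for Sprr1a. The genes whose pattern was most like Sprr1a over the 8 arrays were Ifi27 (r = 0.983), an interferon-induced gene, Fcgr1 (r = 0.979), the high-affinity Fc receptor of myeloid cells, and Ddx51 (r = 0.972). Of them Fcgr1 rose (0.82 ± 0.17, limma adjusted p = 0.0119), and the others had adjusted p of 0.0622 and 0.369. Without cuprizone replicate 2 Ifi27 was called too (limma adjusted p = 0.00256). Ifi27 was picked for its likeness to Sprr1a, so this says nothing further about Sprr1a. The r were likewise picked as the highest over many genes. Genes picked so also reached 0.954 for Nefm and 0.965 for Stmn2, which were not called. The microglial list rose in 9 of 11 genes, beside 4.71% of all clusters. Its mean was highest on cuprizone replicate 3 (0.82 above the control mean), as was Sprr1a. It stood at 0.44, 0.48 and 0.57 on cuprizone replicates 1, 2 and 4, and Sprr1a was at the control level on replicate 2. Which cells raised Sprr1a was not tested.

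The medians of the cytoskeletal and injury-response genes, -0.04 and -0.06, showed no contrast. Their means differed mainly through Sprr1a, and Mapt, at -0.40 to -0.27 from the control mean on the cuprizone arrays, also drew down the cytoskeletal mean. The mean of the 3 injury-response genes lay 0.12, -0.03, 0.47 and 0.19 from the control mean on cuprizone replicates 1 to 4, against -0.13, 0.02, -0.01 and -0.09 for the 7 cytoskeletal genes. With Stmn2 and Gap43 alone the injury-response mean was -0.21, -0.08, 0.10 and -0.07 on the same arrays. The cytoskeletal mean, in which Mapt was kept, had the opposite sign on cuprizone replicates 2 and 3. The difference between the sets was not tested, because the genes were chosen with results known. Several of the 10 genes shared an order of arrays. Cuprizone replicate 3 was the highest cuprizone array for 6 of 10 genes and replicate 1 the lowest for 6 of 10, and control replicate 3 was the highest control for 5 of 10. The neuronal list mean was likewise highest on cuprizone replicate 3 (-0.01) and control replicate 3 (0.04) within their groups.

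**Figure D3:**
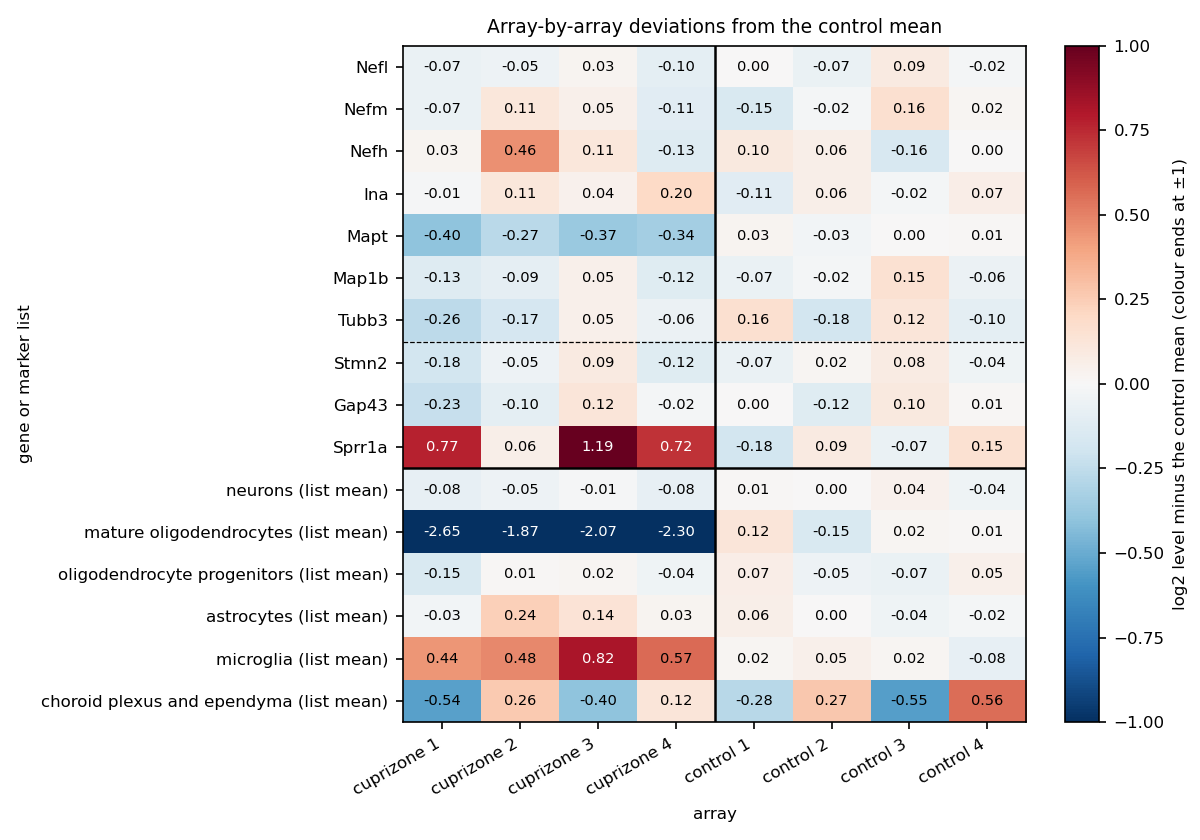
Log2 level minus the control mean, by array (columns, cuprizone left of the line), for each of the 10 genes and, below the solid line, for the means of 6 marker lists; the colour scale ends at ±1 and the printed values are exact to 2 decimals. Mapt is below 0 on all cuprizone arrays, as is the mature oligodendrocyte list (-2.65 to -1.87), while the neuronal list stays between -0.08 and 0.04.

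In 3 lists of other structural and transport proteins of the axon, 9 of 52 measured genes were called, beside 8.22% of all clusters. Of the 52 genes 1 was higher and 8 lower, beside 4.71% higher and 3.52% lower over all clusters. Several of the genes called are also transcribed by glia. Of 23 measured genes of neuronal microtubules 5 fell and 1 rose (2 rose without control replicate 1), with a median of -0.11. Tppp, a tubulin polymerisation protein abundant in oligodendrocytes, was 1.63-fold lower (-0.71 ± 0.05, limma adjusted p = 1.86e-05). Tubb4a, a beta-tubulin abundant in neurons and oligodendrocytes, was 1.60-fold lower (-0.67 ± 0.06), and Stmn4, a stathmin, fell by 0.38 ± 0.07. The other 2 genes that fell, named after their values were seen, were Stmn1 (-0.27 ± 0.06), a stathmin related to Stmn2, and Dcx (-0.33 ± 0.07), a microtubule protein of young neurons. Stmn1 was not called without control replicate 3 or 4 or cuprizone replicate 1, 2 or 4 (limma adjusted p from 0.0588 to 0.0741), nor Dcx without control replicate 1 (limma adjusted p = 0.0534). Tubb2b, a beta-tubulin isotype of developing neurons and of glia, rose 1.54-fold (0.62 ± 0.11, limma adjusted p = 0.00474). In the spectrin and ankyrin scaffold under the axonal membrane 2 of 10 genes fell, Epb41l3 (-0.26 ± 0.06) and the adducin Add1 (-0.22 ± 0.05), with a median of -0.08. Only 1 of the 2 remained without control replicate 1, 2 or 4 or without cuprizone replicate 1, 2 or 3, where Add1 had adjusted p of 0.0624 to 0.0847, and 4 fell with either filter on level or the intensity trend. Of 19 motor and adaptor genes of axonal transport 1 fell, Mapk8ip1 (-0.33 ± 0.05), a scaffold that links kinesin to kinases, with a median of -0.05.

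Of 11 intermediate filament genes beyond the members 4 rose and 1 fell (4.71% and 3.52% over all clusters), with a median of 0.08. Those that rose were Gfap, Vim, Nes and the nuclear lamin Lmna. Gfap, the filament of astrocytes, was 1.95-fold higher (0.96 ± 0.06, limma adjusted p = 4.72e-06), Vim 3.33-fold (1.74 ± 0.14), Nes 3.54-fold (1.82 ± 0.21) and Lmna 1.30-fold (0.38 ± 0.07). The gene that fell was Synm, synemin, a filament protein of muscle that astrocytes also make (-0.37 ± 0.08), named after its value was seen. Peripherin, Prph, the filament protein that injured motor and sensory neurons raise, also named so, had 7.23, 7.05, 6.92 and 7.21 on the cuprizone arrays and 7.00, 7.00, 7.13 and 6.60 on the control arrays, and was not called (0.17 ± 0.11, limma adjusted p = 0.461). Of 12 astrocyte markers, a list that also holds Gfap, 5 rose and 2 fell (4.71% and 3.52% over all clusters). When 1 array was left out, 4 or 5 rose, and 1 fell without control replicate 1 or 4 or cuprizone replicate 1 or 4, against 3 without cuprizone replicate 2 or 3.

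Of genes reported as regeneration-associated in injured neurons, most were not called and more rose than fell. Over all clusters 4.71% were higher and 3.52% lower. Of 32 measured genes 9 rose and 1 fell (2 fell without control replicate 1 or cuprizone replicate 2), with a median of 0.08. Those with the smallest p were the hyaluronan receptor Cd44 (1.92 ± 0.17), the AP-1 subunit Jun (0.69 ± 0.07), the transcription factor Stat3 (0.82 ± 0.08) and the stress gene Gadd45a (0.94 ± 0.10). Glia and leukocytes also transcribe them, and which cells raised them was not tested. Klf6 (0.92 ± 0.13), Ddit3 (1.09 ± 0.13), Tubb6 (0.61 ± 0.11) and Socs3 (0.26 ± 0.05), named after their values were seen, rose as well. Some neuronal growth genes of the list, named likewise, were not called. Among them were Basp1, a growth cone protein related to Gap43 (-0.07 ± 0.06, limma adjusted p = 0.524), and the transcription factor Sox11 (0.04 ± 0.08, limma adjusted p = 0.865). The neuropeptide Gal was not called either (-0.01 ± 0.11, limma adjusted p = 0.968). Its means of 5.69 (cuprizone) and 5.70 (control) lay below the median level of 7.45 over the clusters tested. Atf3, named likewise, is a transcription factor that injured sensory neurons raise, though not only neurons transcribe it. Which cells raised it here was not tested. It had 10.73, 9.56, 10.60 and 9.95 on the cuprizone arrays and 7.21, 8.68, 6.96 and 7.18 on the control arrays, and rose by 2.71 ± 0.36. Control replicate 2 stood well above the other controls. Cuprizone replicate 2 was the lowest cuprizone array for Atf3, as for Sprr1a. The same array was also the lowest for Cd44, Jun, Stat3, Gadd45a, Vim and Nes. It lay nearest to the controls on the first principal component, so this order does not single out Atf3 and Sprr1a. The gene of the list that fell was Marcksl1 (-0.68 ± 0.09), also named after its value was seen.

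Of 18 measured genes of axon degeneration and survival 1 rose, the calpain protease subunit Capn2 (0.35 ± 0.07, limma adjusted p = 0.00819), which without cuprizone replicate 4 was 1 of 2, and the median was -0.03. Over all clusters 4.71% were higher. Capn2 had 9.66, 9.81, 9.83 and 9.69 on the cuprizone arrays and 9.54, 9.37, 9.38 and 9.31 on the control arrays, with no overlap. Sarm1, the NAD-cleaving executor of axon degeneration, and Nmnat2, its short-lived antagonist in axons, were named after their values were seen. Their log2 fold changes were -0.10 ± 0.05 (limma adjusted p = 0.314) and 0.04 ± 0.06 (limma adjusted p = 0.803), and neither was called.

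**Figure D4:**
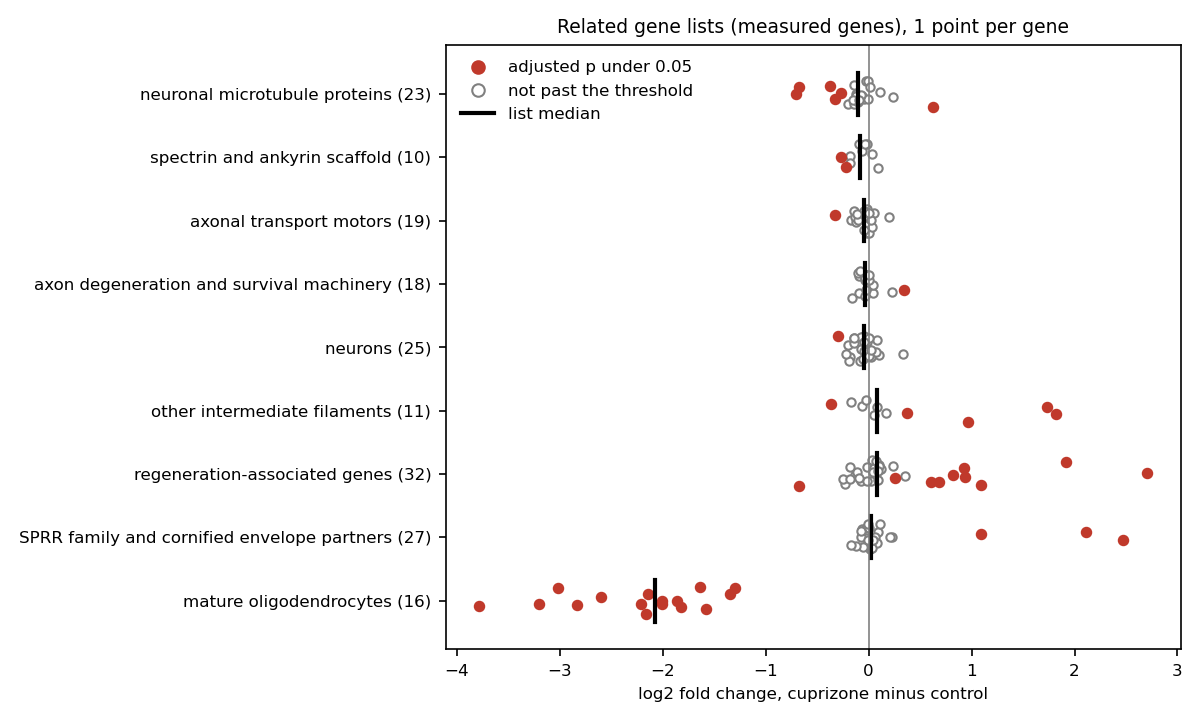
Log2 fold change (cuprizone minus control, horizontal axis) of each measured gene of 9 related lists, with filled points past an adjusted p of 0.05 and bars at the list median; numbers in brackets are measured genes. The axonal lists have medians from -0.11 to -0.03, below the median of -0.0074 over all clusters. The mature oligodendrocyte list lies wholly below 0 with a median of -2.08.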

How the data were processed

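Total RNA (150 ng for each sample) was labelled and hybridised per the labels' protocols. The deposited values are log2 levels of 28944 transcript clusters on 8 arrays, and the submitters' processing notes name Affymetrix Expression Console, RMA and Transcriptome Analysis Console without versions or roles. Published RMA brings arrays to 1 distribution, which hides a shift shared by most genes. Scanner files were not used here, and the genome build is not given in the sources used here. The number of arrays sets the precision.

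Clusters were named through the supplied platform annotation; the 10 members carried the same symbols in RefSeq. The 23410 clusters with a symbol were tested with limma 3.58.1 (R 4.3.3), cuprizone against control without covariate or filter, two-sided, with Benjamini-Hochberg adjustment over all of them. All adjusted p come from this model, ± after a fold change is its SE, and ± after a mean is the SD. The fit was tested on simulated data. Single genes also had an exact permutation test.

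The members and lists were chosen with earlier results of these data known. Named were all members, up to 4 genes a list with the smallest p among those called (2 where none was), and the 3 genes most correlated with Nefl, Gap43 and Sprr1a over the arrays, leaving aside predicted genes, genes named after clones, small RNAs and chemosensory receptors; others are marked. Same-numbered arrays are not said to share an animal, and their deviations from the group means correlated at -0.19, -0.02, 0.21 and -0.06, so the numbers were not taken to pair them. Alternatives were refits with other normalizations, filters, weights, covariates and arrays.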

Additional observations from a re-analysis of the deposited data

Results flagged for a closer look

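Of 138 groups of 4 arrays (69 named genes in each diet), 8 held an array set far apart from the other 3, by a gap of more than 0.829 of the group's range; chance gives about 1 in 20 such groups. None concerned the 10 axonal genes. On cuprizone replicate 3, Lmna was high at 8.17, against 8.03 to 8.05 on the other cuprizone arrays (gap 0.838 of the range), and Gadd45a was high at 8.78, against 8.59 to 8.61 (0.875). Stat3 was low on cuprizone replicate 2, at 9.92 against 10.06 to 10.08 (0.907). Bcap31, one of the genes most like Nefl over the arrays, was high on cuprizone replicate 3, at 9.73 against 9.41 to 9.45 (0.863). Cd44 was high on control replicate 2, at 6.96 against 6.19 to 6.26 on the other controls (0.912), and so was Atf3, at 8.68 against 6.96 to 7.21 (0.854). On control replicate 4 Basp1 was high, at 11.45 against 11.31 to 11.32 (0.951), and Nmnat2 low, at 10.29 against 10.39 on each of the other controls (0.941).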

How the results depend on the processing

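Mapt kept its direction and its call in all 18 alternative fits (adjusted p from 0.000427 to 0.0312). Sprr1a kept its direction, and its call held in 3 of 17 (1 cluster per gene, the filter at the 25th percentile, and without cuprizone replicate 2); the filter at the median removed it. The count of injury-response genes called, 1 as reported, was 0 with all clusters, array weights, median centring, an intensity trend with a robust prior, quantile normalization again, the replicate block, the filter at the median, and the neuronal list mean as covariate, and lay between 0 and 1 when 1 array was left out. The adjusted p of Sprr1a in those fits was between 0.0505 and 0.186. With the replicate number as a block it was 0.0732, and 892 clusters were higher and 636 lower, against 1102 and 823 without it. With the neuronal covariate these counts were 686 and 396, and leaving out 1 array gave 795 to 1122 higher and 609 to 741 lower. Estimates near 0 turned sign without being called: with the neuronal covariate Nefl was 0.040, Nefm 0.097, Map1b 0.068, Tubb3 0.065, Stmn2 0.072, Gap43 0.068, Sprr1b -0.017, Sox11 -0.131, Cntn6 0.093, Cmc2 0.021, Rab5b 0.071, Fkbp2 0.040, Bcap31 0.167 and Eipr1 0.067, and with array weights Nefm was 0.0057 and Gal 0.012. When 1 array was left out Nefm lay between -0.055 and 0.049, Sox11 between -0.023 and 0.097, Gal between -0.109 and 0.058, Nmnat2 between -0.0028 and 0.086, Cntn6 between -0.092 and 0.019, and Rab5b between -0.042 and 0.020. In the spectrin and ankyrin list 4 genes fell with either filter or the intensity trend and 0 with the neuronal covariate, and the neuronal list had 3 or 4 lower genes with the filters, the trend or median centring. Counting Stmn2 with the cytoskeleton changed no count. The causes were not tested. Signal over background was not measured, so that for Sprr1a no limit of detection can be given.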

Other observations

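The choroid plexus and ependyma list, which could mark tissue dissected along with the callosum, differed between arrays within both diets. Its mean lay -0.54, 0.26, -0.40 and 0.12 from the control mean on cuprizone replicates 1 to 4, and -0.28, 0.27, -0.55 and 0.56 on control replicates 1 to 4. Of its 11 measured genes 1 fell, beside 3.52% of all clusters, the chemoattractant gene Rarres2 (-0.34 ± 0.07, limma adjusted p = 0.0146). Oligodendrocyte progenitor markers had no called gene among 10 in limma, with C1ql1 at -0.28 ± 0.09 (limma adjusted p = 0.0997) and Pdgfra at -0.24 ± 0.10 (limma adjusted p = 0.182), and 4 genes of that list had an unadjusted p under 0.05, as had 20.8% of all clusters. Without control replicate 2, C1ql1 passed (limma adjusted p = 0.0428).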
